A study of Homo sapiens with 9 samples.

Results

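SU-DHL4 was the B-cell line with a low level of IGHM, the gene of the immunoglobulin mu heavy chain, among 3 human B-cell lymphoma lines. The genes described here set SU-DHL4 apart from Namalwa and SU-DHL6. They were chosen from the measured values: a gene was kept where both SU-DHL4 arrays lay above, or both below, all 4 arrays of the other lines. Of 22215 probe sets, 2236 (10.1%) were higher and 3096 (13.9%) were lower in this sense. With 1 probe set per gene, 3094 of 11963 genes were kept, 1213 of them higher (10.1%) and 1881 lower (15.7%). Because these values chose the genes, the differences between SU-DHL4 and the other lines are a description and carry no test.

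The series measured total RNA of 6 human cell lines on 9 Affymetrix human genome arrays, which read each transcript through 1 or more probe sets. Diffuse large B-cell lymphoma was the source of SU-DHL4 and SU-DHL6 and Burkitt lymphoma that of Namalwa, with 2 arrays for each line. Of the plasma cell myeloma (PCM) lines, each with 1 array, U266 and LP1 were of myeloma and L363 of plasma cell leukaemia origin. The array titles call the B-cell lines untreated, whereas those of the PCM lines give the line name alone. All lines grew in RPMI medium with serum. The SU-DHL4 and SU-DHL6 arrays were made for this study, whereas the Namalwa arrays came from an earlier study of the same group, so line and study cannot be told apart for Namalwa. Nothing in the labels says that duplicates came from separate cultures, so their spread may be technical, and 2 arrays of 1 line stand for 1 line.

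Values are log2 intensities after robust multi-array averaging (RMA), so a difference of 1 is 2-fold. RMA gives no detection call, so a low value does not mean that a transcript was absent. The arrays average over a culture, so fewer expressing cells and less RNA per cell cannot be told apart. Array medians lay between 6.95 and 7.04. The standard deviation of the difference between 2 arrays over all probe sets was 0.22 to 0.35 for duplicates. It was 0.48 to 0.52 between SU-DHL4 and Namalwa, 0.47 to 0.56 between SU-DHL4 and SU-DHL6, and 0.50 to 0.54 between Namalwa and SU-DHL6. The L363 and U266 arrays differed by 0.32, within the range of the duplicates.

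A mature B cell carries a B-cell receptor, made of an immunoglobulin heavy chain paired with a kappa or a lambda light chain. IGHM encodes the heavy chain of IgM, and germinal centre B cells can exchange it for another heavy chain by class switching. Diffuse large B-cell lymphomas are grouped by their resemblance to germinal centre B cells, with BCL6 as a leading factor, or to activated B cells, with IRF4 and NF-kB target genes. NF-kB and interferon-activated factors are also known to act on the promoters of MHC class I genes, which present peptides to cytotoxic T cells.

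Of 20 measured B-cell identity genes 2 were higher in SU-DHL4 (10%) and 5 lower (25%), against 10.1% and 15.7% of all genes, with a median difference of -0.06. The higher members were CD74 and SPI1, and the lower ones CD24, IRF8, SPIB, TCL1A and CD40. Of these, TCL1A, a coactivator of AKT, measured 10.53 and 11.04 in SU-DHL4, 12.95 and 12.85 in Namalwa and 11.79 and 11.34 in SU-DHL6. Of the members that were not beyond, 5 are given as examples. MS4A1, which encodes the surface protein CD20, measured 12.44 and 12.65 in SU-DHL4, against 11.09 and 10.96 in Namalwa and 12.67 and 12.22 in SU-DHL6. CD79A, the signalling partner of surface immunoglobulin, measured 11.27 and 11.36 in SU-DHL4, and the B-lineage factor PAX5 9.86 and 9.83. On the probe sets used, neither they nor CD22 (10.95 and 10.72) and CD37 (10.68 and 10.74) lay beyond the other B-cell arrays. Another CD22 probe set had SU-DHL4 higher, with 10.15 and 10.27 against 8.24 to 9.19. For these 5 genes the highest PCM value was below both SU-DHL4 values. Of 20 T and NK cell markers 1 was higher and 0 lower, of 16 myeloid markers 1 was higher and 0 lower, and of 11 erythroid and platelet markers 0 lay beyond in either direction. The summed linear levels of the T and NK list, as log2, were 11.71 and 11.73 in SU-DHL4 and 11.39 to 12.09 in the other B-cell arrays. For the myeloid list they were 9.71 and 9.61, against 9.62 to 9.74.

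The distance between SU-DHL4 and the other lines was measured by a gap, the log2 distance from the nearer SU-DHL4 array to the nearest of the other 4. Most gaps were small. The median gap was 0.18 over the higher genes and 0.09 over the lower genes. A gap of at least 1 was found for 67 higher genes (0.56% of all genes) and 43 lower genes (0.359%), and a gap of at least 2 for 20 and 13. When Namalwa was set apart in the same way from the other 2 lines, 1450 genes were higher (12.1%) and 1480 lower (12.4%), with 71 (0.593%) and 59 (0.493%) at a gap of at least 1. For SU-DHL6 the counts were 2221 (18.6%) and 1255 (10.5%), with 62 (0.518%) and 64 (0.535%). The number of genes beyond the others, 3094 for SU-DHL4, lay between 2930 for Namalwa and 3476 for SU-DHL6. Against the SU-DHL6 arrays alone, an alternative chosen after seeing the data, 200 genes were higher and 162 lower in SU-DHL4 at a gap of at least 1.

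**Figure D1:**
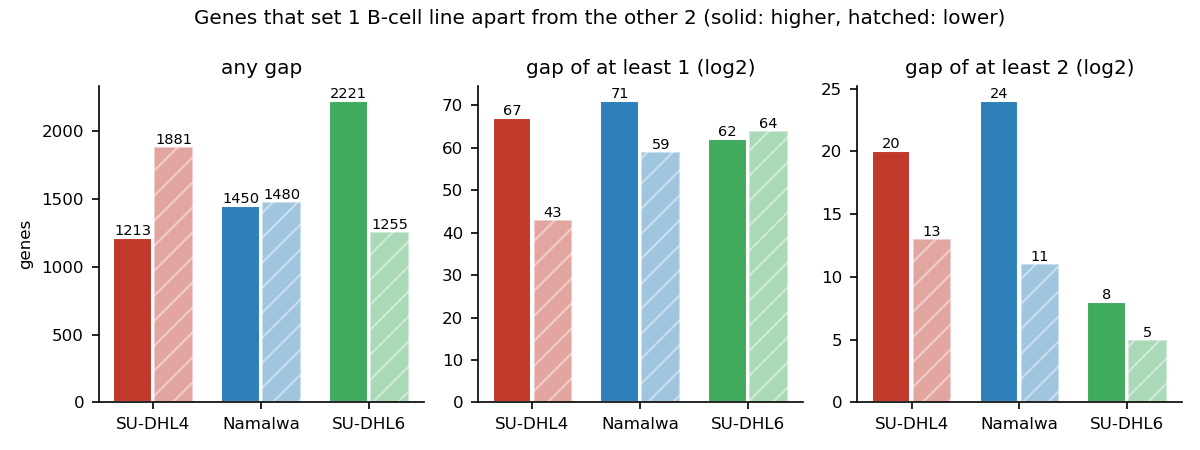
Number of genes that set each B-cell line apart from the other 2, at any gap, at a gap of at least 1 and at a gap of at least 2 (log2). Solid bars are genes with both arrays of the line above the other 4 arrays, and hatched bars genes with both below. SU-DHL4 had more lower than higher genes at any gap (1881 against 1213) and more higher than lower genes at a gap of at least 1 (67 against 43).

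At the edge of the rule the genes carried little. SNRPB2, just inside on the higher side, measured 10.86 and 10.97 in SU-DHL4 against a highest value of 10.86 in Namalwa, and ABHD2, just outside, had its lower SU-DHL4 value equal to a Namalwa value at 7.61. On the lower side KCNH1 was just inside, with 5.44 and 5.45 against a lowest value of 5.45, and ACTR5 was just outside, with 7.89 and 7.81 against 7.89. At a gap of 1, PPP2R3B was just inside (8.47 and 8.15 against at most 7.14) and CSF2RB just outside (8.80 and 8.60 against at most 7.61) on the higher side. On the lower side IVNS1ABP was just inside (7.90 and 7.19 against at least 8.90) and ANKRD13C-DT just outside (5.13 and 5.72 against at least 6.72).

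The 5 genes used to mark SU-DHL4 had wide gaps. IGHM measured 7.18 and 6.93 in SU-DHL4, 12.50 and 12.79 in Namalwa and 13.11 and 12.86 in SU-DHL6. The groups were far apart, and the SU-DHL4 mean was 54.2-fold lower than the mean of the other 2 lines, the widest gap of all genes (5.32). CD24, a small surface protein of B-cell precursors and many tumour cells, measured 7.54 and 8.17 in SU-DHL4, 11.58 and 11.47 in Namalwa and 10.89 and 11.40 in SU-DHL6. It was 11.2-fold lower, with the SU-DHL4 arrays apart from the other 4 at 6 of 6 probe sets. UCHL1, a ubiquitin hydrolase best known from neurons, measured 7.11 and 6.83 in SU-DHL4, 12.20 and 12.29 in Namalwa and 11.60 and 11.25 in SU-DHL6, a 29.1-fold lower mean. IRF4, a transcription factor of activated B cells and plasma cells, measured 6.70 and 6.40 in SU-DHL4, 8.44 and 8.41 in Namalwa and 9.10 and 8.74 in SU-DHL6, a 4.36-fold lower mean. Its other 2 probe sets did not set SU-DHL4 apart, and with the mean of all probe sets of a gene the gap was 0.55 for IRF4 and 1.91 for IGHM. CD99, a surface glycoprotein of leukocyte adhesion, went the other way: it measured 10.79 and 11.20 in SU-DHL4, 7.58 and 7.40 in Namalwa and 7.20 and 7.09 in SU-DHL6. The SU-DHL4 mean was 12.8-fold higher, and both CD99 probe sets agreed in direction.

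**Figure D2:**
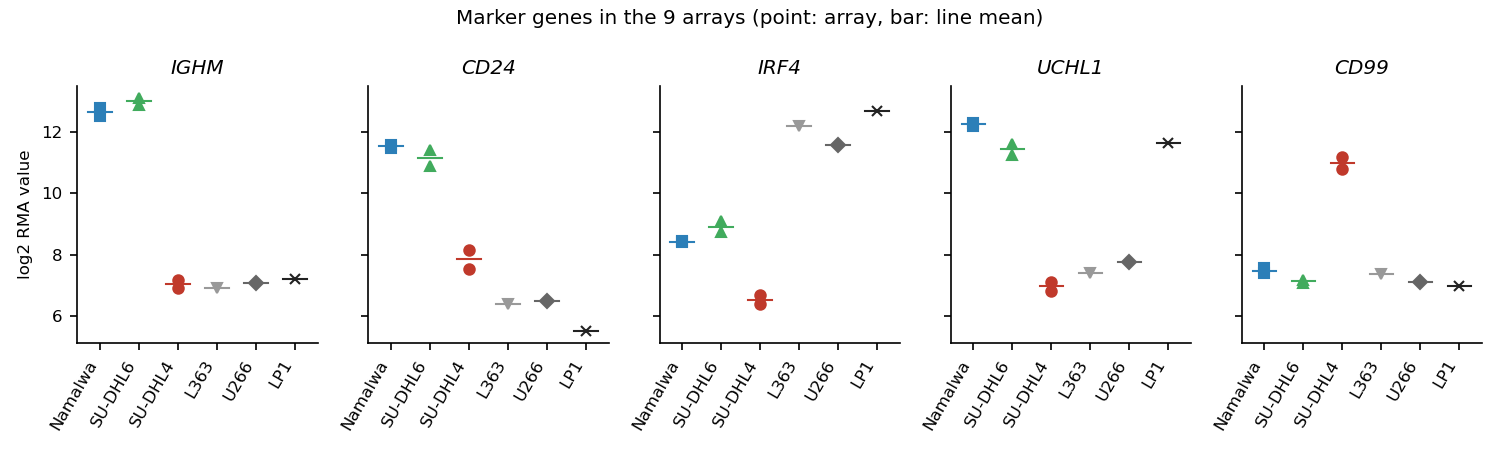
Levels of IGHM, CD24, IRF4, UCHL1 and CD99 (log2 RMA) in the 9 arrays, with 1 point for each array and a bar for the mean of each line. SU-DHL4 lies below Namalwa and SU-DHL6 for the first 4 genes and above them for CD99; the PCM lines lie near SU-DHL4 for IGHM (6.91 to 7.20) and far above it for IRF4 (11.58 to 12.69).

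The low IGHM level came with low values at other immunoglobulin genes, but not at all of them. Of 14 measured genes on the immunoglobulin list 7 were lower in SU-DHL4 (50%, against 15.7% of all genes) and 0 were higher, with a median difference of -0.19 against -0.05 over all genes. A second IGHM probe set measured 6.66 and 6.37 in SU-DHL4 and 11.59 to 11.82 in the other B-cell arrays. The other 3 IGHM probe sets did not set SU-DHL4 apart, and on 2 of them the Namalwa arrays alone were high. IGHD, the delta heavy chain that shares a transcript with mu in naive B cells, measured 7.0 and 6.87 in SU-DHL4, 8.34 and 8.33 in Namalwa and 8.26 and 7.81 in SU-DHL6. All 4 other arrays were above SU-DHL4, by 2.38-fold on average, and 3 of 4 IGHD probe sets had SU-DHL4 lower. For the lambda light chain, IGLC1 measured 9.07 and 8.84 in SU-DHL4, 14.07 and 13.92 in Namalwa and 12.16 and 12.74 in SU-DHL6. The variable gene IGLV1-44 followed the same order, with 8.21 and 8.28 in SU-DHL4, 13.23 and 13.18 in Namalwa and 11.43 and 12.21 in SU-DHL6. Each was 19.3-fold lower in SU-DHL4, though only 2 of 6 IGLC1 probe sets and 2 of 5 IGLV1-44 probe sets had SU-DHL4 below the other 4 arrays. With the mean of all probe sets their gaps were 1.02 and 0.65, and without probe sets that may read several transcripts IGLC1 had no gap and IGLV1-44 one of 0.04.

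The other lower members were lambda genes: IGLL3P, with 8.27 and 7.82 in SU-DHL4 against 9.46 to 10.94, and by small gaps IGLJ3 (0.14) and IGLL5 (0.01). IGKC, the constant gene of the kappa light chain, was not set apart on the probe set used. It measured 9.55 and 10.11 in SU-DHL4, 10.10 and 10.27 in SU-DHL6 and 8.34 and 7.94 in Namalwa, so SU-DHL4 was above Namalwa, with one array below both SU-DHL6 arrays. A second IGKC probe set had SU-DHL4 higher, with 9.47 and 10.32 against 7.79 to 8.52, and another had it lower by a gap of 0.25. Of 10 probe sets annotated to kappa genes, 2 varied by at least 4 across arrays, and on them SU-DHL4 ranged from 13.01 to 13.45, SU-DHL6 from 13.41 to 13.57 and Namalwa from 10.97 to 11.37. The remaining members were also not beyond: JCHAIN, the joining chain of secreted IgM and IgA, measured 11.05 and 11.10, and MZB1, a chaperone of immunoglobulin assembly, 10.03 and 10.03. VPREB3, which binds unassembled light chains, measured 10.86 and 10.85, IGHG1, of the gamma heavy chain, 7.37 and 7.23 on a probe set that varied little over the 9 arrays, and the surrogate light chain gene IGLL1 6.44 and 5.58. VPREB1, the other surrogate light chain gene, measured 5.41 and 5.85 in SU-DHL4 and 5.49 and 5.44 in SU-DHL6, and only Namalwa was high (8.54 and 8.60). Another 47 probe sets of immunoglobulin genes are annotated to several genes and cannot be given to 1 of them. Of these 1 had SU-DHL4 higher and 12 lower, where 10.1% and 13.9% of all probe sets were. The widest lower gap was 2.87, on a probe set of IGLV1-44 and IGLC1, and the next was 0.24. Of the 47, a probe set annotated to mu and gamma genes together measured 10.57 and 11.05 in SU-DHL4, 10.66 and 10.51 in SU-DHL6 and 6.88 and 6.82 in Namalwa, so the heavy chain of SU-DHL4 cannot be read from the single-gene probe sets. Immunoglobulin genes are near-identical copies of each other, so their probe sets may read more than 1 gene.

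MHC class I genes had the lowest median difference of the 12 lists plotted here. Of 16 measured members 8 were lower (50%, against 15.7% of all genes) and 0 higher (against 10.1%). Of the lower ones 2 had a gap of at least 1, and the median difference was -0.51. HLA-C measured 9.11 and 9.29 in SU-DHL4, 12.87 and 13.09 in Namalwa and 11.93 and 11.95 in SU-DHL6. HLA-B measured 9.54 and 9.73 in SU-DHL4, 13.30 and 13.27 in Namalwa and 11.72 and 12.09 in SU-DHL6. Both encode classical peptide-presenting heavy chains, and both were lowest of the 9 arrays in SU-DHL4, at 9.57-fold and 7.80-fold below the other B-cell lines. All 4 HLA-C and all 3 HLA-B probe sets agreed in direction. The non-classical genes differed less: HLA-G measured 9.96 and 9.74 in SU-DHL4 against 10.91 to 11.38, and HLA-F 9.29 and 8.91 against 9.93 to 10.26. HLA-E, a ligand of NK cell receptors, measured 9.13 and 8.97 in SU-DHL4, 9.70 and 10.08 in Namalwa and 10.83 and 11.15 in SU-DHL6, so that SU-DHL4 was below both lines, which themselves differed. TAP1, a subunit of the peptide transporter, PSMB10, an immunoproteasome subunit, and ERAP1, a peptide-trimming enzyme, were lower by gaps of 0.14, 0.61 and 0.04. The other ERAP1 probe sets did not have SU-DHL4 lower. B2M, the light chain of every class I molecule, was not set apart on the probe set used: it measured 12.34 and 12.46 in SU-DHL4, 12.48 and 12.33 in SU-DHL6 and 12.83 and 12.97 in Namalwa. A second B2M probe set had SU-DHL4 lower by a small gap, with 12.16 and 12.30 against 12.32 to 12.67. HLA genes resemble one another closely, and their probe sets may share signal.

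The promoters of 3 lower genes are shown because HLA-B and HLA-C led the MHC class I list and TNFAIP3 the NF-kB list. Each is the stretch of 250 bases before the gene's start from RefSeq on GRCh38.p14, read along the gene's strand. That of HLA-B is chr6:31357180-31357429 (minus strand), that of HLA-C chr6:31272093-31272342 (minus strand) and that of TNFAIP3 chr6:137867009-137867258 (plus strand). Capitals mark matches to the NF-kB consensus, searched on both strands.
HLA-B: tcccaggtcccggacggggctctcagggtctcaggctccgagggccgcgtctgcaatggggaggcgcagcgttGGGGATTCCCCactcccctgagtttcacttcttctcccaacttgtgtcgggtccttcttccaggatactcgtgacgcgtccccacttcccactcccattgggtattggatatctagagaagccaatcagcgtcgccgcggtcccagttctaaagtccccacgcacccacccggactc
HLA-C: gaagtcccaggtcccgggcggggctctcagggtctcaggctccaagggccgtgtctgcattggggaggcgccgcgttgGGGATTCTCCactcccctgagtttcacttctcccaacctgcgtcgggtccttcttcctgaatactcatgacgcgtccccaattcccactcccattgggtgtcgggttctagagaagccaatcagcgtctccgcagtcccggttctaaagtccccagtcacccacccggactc
TNFAIP3: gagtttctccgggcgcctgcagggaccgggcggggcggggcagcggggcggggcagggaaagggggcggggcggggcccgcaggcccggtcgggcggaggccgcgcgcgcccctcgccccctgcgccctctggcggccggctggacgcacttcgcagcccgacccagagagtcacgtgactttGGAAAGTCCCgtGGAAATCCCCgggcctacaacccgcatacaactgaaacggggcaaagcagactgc
HLA-B holds 2 overlapping matches, whose first bases lie 177 and 176 bases before the start, and HLA-C holds 1, at 172 bases. TNFAIP3 holds 2, at 67 and 55 bases. None of the 3 holds, on either strand, an exact match to the core pattern used for the interferon-stimulated response element. That pattern is GAAA, any 2 bases and GAAA again, and looser forms of the element were not searched. Of 27305 promoters in the table, 9.57% hold the NF-kB consensus and 3.07% the response core.

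Among genes with a gap of at least 1, a promoter was matched for 31 of 43 lower genes, of which 7 (22.6%) hold the NF-kB consensus, and for 44 of 64 higher genes, of which 7 (15.9%) hold it. No matched promoter of either set holds the response core. In the MHC class I list the consensus is in 4 of 7 matched promoters of lower members and in 2 of 7 of the members not lower. In the NF-kB list it is in 3 of 10 promoters of lower members and 7 of 13 of the others, a smaller share in the lower members. In the interferon list the response core is in 4 of 9 promoters of lower members and 9 of 11 of the others. A match describes the letters only.

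Of 29 measured genes of the NF-kB pathway and its targets, 13 were lower in SU-DHL4 (44.8%) and 1 higher (3.45%). Over all genes the shares were 15.7% and 10.1%, and the median difference of the list was -0.45. TNFAIP3, which encodes the NF-kB inhibitor A20 and is itself an NF-kB target, measured 6.74 and 6.70 in SU-DHL4, 8.58 and 8.29 in Namalwa and 7.86 and 7.80 in SU-DHL6. It was the one member with a gap of at least 1. LTB, the membrane anchor of lymphotoxin, measured 8.38 and 7.32 in SU-DHL4, 9.37 and 9.37 in Namalwa and 12.43 and 11.30 in SU-DHL6, where the height of SU-DHL6 made the mean difference of 6.81-fold. CD83, a surface marker of activated B cells, measured 8.67 and 8.44 in SU-DHL4, 9.55 and 9.67 in Namalwa and 10.21 and 10.82 in SU-DHL6. NFKBIE, an inhibitor that holds NF-kB in the cytoplasm, measured 7.89 and 7.75 in SU-DHL4 against 8.53 to 9.14. SU-DHL4 was lowest in each of these genes among the B-cell arrays, but overlapped the PCM values for LTB (7.24 to 7.58) and lay above them for CD83 (7.67 to 8.25). Of the subunits, RELB was lower with 7.59 and 7.88 against 8.42 to 8.85 and RELA with 9.09 and 9.03 against 9.38 to 9.53, while NFKB1 was higher, with 9.19 and 9.34 against 8.61 to 9.12. REL, NFKB2 and 13 other members were not beyond. CCL4, a chemokine target, had a mean difference of -1.57 without being beyond, because only the Namalwa arrays were high (10.29 and 10.43 against 6.72 to 7.14).

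The interferon response list held 11 lower members of 27 (40.7%, against 15.7% of all genes) and 2 higher (7.41%, against 10.1%). Its median difference was -0.20. IRF7, a factor that amplifies interferon genes, measured 6.45 and 5.81 in SU-DHL4, 7.27 and 7.29 in Namalwa and 7.61 and 8.10 in SU-DHL6. IFI16, a sensor of DNA, measured 9.79 and 9.96 in SU-DHL4, 11.61 and 11.38 in Namalwa and 10.56 and 10.70 in SU-DHL6. IRF9, the DNA-binding part of the interferon-activated complex, measured 7.93 and 7.56 against 8.25 to 8.83, and MX2, an antiviral GTPase, 6.89 and 7.05 against 7.48 to 9.54. These 4 separated SU-DHL4 from both lines. In MX1, OAS1 and IFI44L, by contrast, SU-DHL4 lay just under SU-DHL6 and far under Namalwa: MX1 measured 6.14 and 6.0 in SU-DHL4, 6.22 and 6.26 in SU-DHL6 and 9.30 and 8.95 in Namalwa. The membrane antiviral genes IFITM2 (9.75 and 10.15 against 8.44 to 9.59) and IFITM3 (9.69 and 10.07 against 8.83 to 9.53) were the 2 higher members. Receptors of interferon gamma were lower too: IFNGR1 measured 7.85 and 8.05 against 8.31 to 8.62, and IFNGR2 9.06 and 8.76 against 9.39 to 9.72.

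Genes of the activated B-cell type of lymphoma were mostly lower and those of the germinal centre type more often higher. Of 18 measured activated-type genes 10 were lower (55.6%, against 15.7% of all genes) and 1 higher (5.56%, against 10.1%). Their median difference was -0.38. After IRF4, PRKCB had the next widest gap; this kinase joins the B-cell receptor to NF-kB. It measured 6.90 and 6.91 in SU-DHL4, 9.88 and 10.00 in Namalwa and 7.99 and 8.60 in SU-DHL6, a 4.64-fold lower mean. PIM1, a survival kinase induced by cytokines, measured 7.57 and 7.70 in SU-DHL4, 8.25 and 8.25 in Namalwa and 9.40 and 9.48 in SU-DHL6, and IL16 7.43 and 7.65 against 7.96 to 8.20. SH3BP5, an inhibitor of the kinase BTK, was the higher member, with 7.62 and 8.30 against 6.35 to 7.22. IRF4, PRKCB and BLNK also stand on other lists given here, so these counts are not independent of each other.

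Of 20 measured germinal centre genes 8 were higher (40%, against 10.1% of all genes) and 2 lower, with a median difference of 0.31. BCL6, the repressor that defines the germinal centre programme, measured 11.05 and 11.15 in SU-DHL4, 10.25 and 10.32 in Namalwa and 10.36 and 10.57 in SU-DHL6. STAP1, an adaptor downstream of the B-cell receptor, measured 9.95 and 10.11 in SU-DHL4, 8.24 and 8.01 in Namalwa and 8.75 and 9.32 in SU-DHL6. ITPKB, a kinase of inositol phosphates, measured 8.50 and 8.52 against 7.28 to 7.90, and SSBP2, a DNA-binding cofactor, 9.01 and 9.21 against 7.68 to 8.57. The SU-DHL4 arrays were the highest B-cell arrays for all 4, by folds of 1.66 for BCL6 to 2.74 for STAP1. BCL7A and ASB13 were lower by gaps of 0.03 each, and 0 of 20 members reached a gap of 1.

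SU-DHL4 was lower for 6 of 16 plasma cell genes (37.5%, against 15.7% of all genes) and higher for 0 (against 10.1%). The median difference was -0.18. XBP1, the factor that expands the secretory apparatus, measured 6.33 and 6.33 in SU-DHL4, 9.44 and 9.71 in Namalwa and 8.15 and 7.58 in SU-DHL6. The SU-DHL4 arrays were 5.24-fold below the other B-cell lines, and the PCM arrays were highest, at 11.35 to 11.59. CD38, a surface enzyme of germinal centre and plasma cells, measured 9.74 and 9.71 against 10.20 to 10.93, and SSR4, a translocon subunit, 11.01 and 10.90 against 11.12 to 11.37. PRDM1, the leading plasma cell repressor, was not beyond (difference -0.11). Chemokine and homing receptor genes had a median difference of -0.17. Of 20 members 8 were lower (40%, against 15.7% of all genes) and 0 higher. That lower count was 6 after a second quantile normalization and 12 after centring on the 75th percentile, so several of its members lay close to the edge of the rule. CXCR4, which draws B cells towards CXCL12, measured 10.11 and 10.17 in SU-DHL4, 11.68 and 11.87 in Namalwa and 10.74 and 11.50 in SU-DHL6, and 3 of 3 probe sets agreed. The next members, CXCL9, CCR9 and CXCL10, were lower by gaps of 0.06 to 0.12 only.

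**Figure D3:**
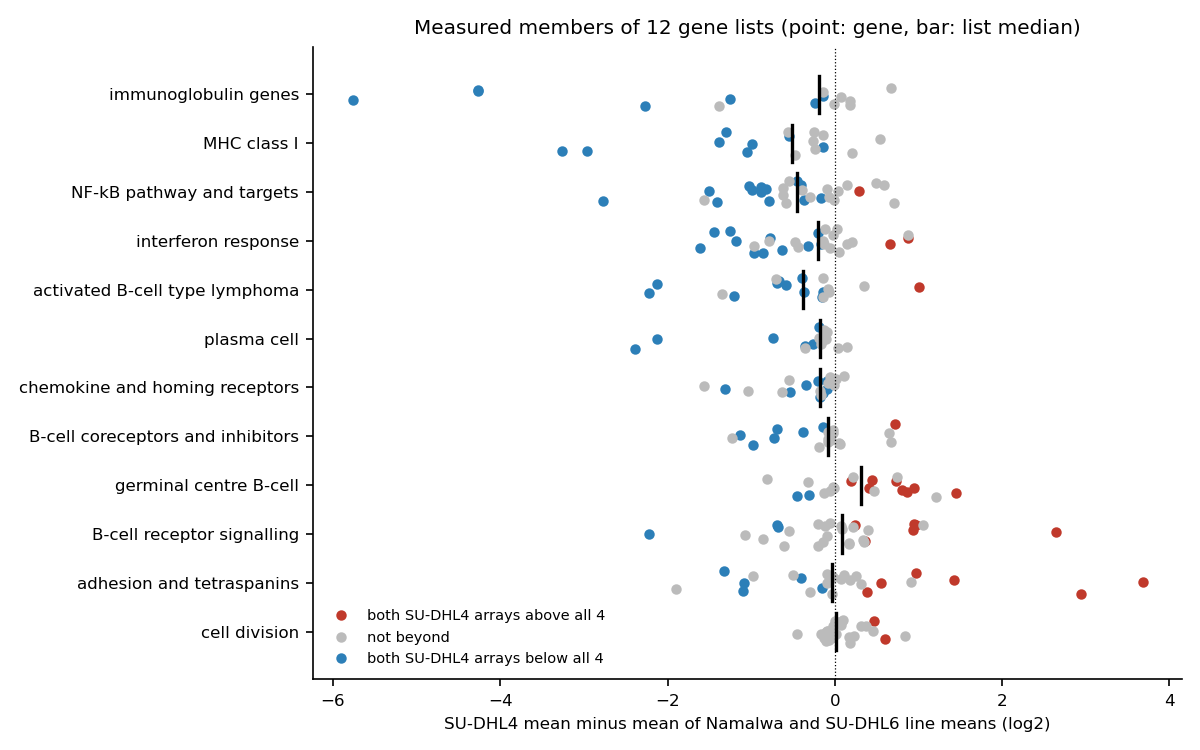
Difference between the SU-DHL4 mean and the mean of the Namalwa and SU-DHL6 line means (log2) for each measured member of 12 gene lists. Points are genes, coloured by whether both SU-DHL4 arrays lay above all 4 other arrays, below them or neither, and bars are list medians; the medians run from -0.51 for MHC class I to 0.31 for germinal centre genes.

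Of 28 measured genes of B-cell receptor signalling 6 were higher (21.4%, against 10.1% of all genes) and 3 lower (10.7%, against 15.7%), with a median difference of 0.08. RASGRP1, an activator of Ras, measured 8.08 and 8.36 in SU-DHL4, 5.83 and 5.70 in Namalwa and 4.96 and 5.82 in SU-DHL6, a 6.24-fold higher mean. VAV1, a signalling protein of lymphocytes, measured 9.69 and 9.63 against 8.36 to 9.12, and the kinase BLK 9.71 and 9.80 against 7.81 to 9.61. Beside PRKCB, the lower members were CD79B, the other signalling partner of surface immunoglobulin, with 10.16 and 9.94 against 10.41 to 10.96, and the adaptor BLNK, with 9.09 and 9.39 against 9.57 to 10.45. Among coreceptors and inhibitors 6 of 19 were lower (31.6%) and 1 higher (5.26%). PTPN6, the phosphatase SHP-1 that damps receptor signals, measured 6.81 and 6.25 against 7.50 to 7.98. PTPRC, which encodes CD45 and opens Src family kinases for signalling, was the higher member with 10.86 and 10.90 against 9.73 to 10.61, and 3 of 3 probe sets agreed. CR2, the complement receptor CD21, was high in Namalwa only (7.81 and 7.78 against 5.23 to 5.57).

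Of 29 genes of cytokine receptors and JAK-STAT signalling 3 were higher (10.3%) and 7 lower (24.1%), and of 22 G1 cyclins and inhibitors 3 were higher (13.6%) and 5 lower (22.7%). These shares are not far from the 10.1% and 15.7% of all genes. STAT5B, a transcription factor of cytokine receptors, measured 9.26 and 9.26 against 7.78 to 8.42 with 3 of 3 probe sets higher, whereas IL2RG, the common receptor chain, measured 8.93 and 8.58 against 9.31 to 10.57. For the G1 phase, CCND3, the D cyclin of germinal centre B cells, measured 9.33 and 9.36 in SU-DHL4, 11.56 and 11.25 in Namalwa and 10.82 and 10.93 in SU-DHL6. MYC was higher, with 11.59 and 11.68 against 9.75 to 11.00. Of 26 genes of cell division 2 were higher (7.69%) and 0 lower, with a median of 0.01 that turned to -0.03 when arrays were centred on their 75th percentile.

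Of the 64 higher genes with a gap of at least 1 that are named here, out of 67, TUBB6, ZMIZ1 and CD99 had the widest gaps. TUBB6, a beta tubulin, measured 9.72 and 9.76 in SU-DHL4, 5.56 and 5.85 in Namalwa and 5.90 and 6.04 in SU-DHL6, a 15-fold higher mean. ZMIZ1, a coactivator with a SUMO ligase fold, measured 10.38 and 10.43 in SU-DHL4, 6.88 and 6.50 in Namalwa and 6.14 and 7.06 in SU-DHL6, a 13.5-fold higher mean. For both genes the SU-DHL4 duplicates lay within 0.05 of each other and far above all other B-cell arrays. Of 26 adhesion and tetraspanin genes 6 were higher (23.1%, against 10.1% of all genes) and 5 lower (19.2%, against 15.7%). Of the higher ones 3 had a gap of at least 1. ITGB1, the beta-1 integrin, measured 10.12 and 10.47 in SU-DHL4, 8.22 and 8.10 in Namalwa and 5.81 and 7.27 in SU-DHL6, with 3 of 5 probe sets higher. ITGB2, the leukocyte integrin beta-2, measured 8.31 and 8.21 against 6.42 to 7.13, and ITGA4, a partner of ITGB1, 8.40 and 8.34 against 7.04 to 7.74. CD47, which signals macrophages not to engulf a cell, measured 9.17 and 9.52 in SU-DHL4 against 10.31 to 10.88, and CD58, the ligand of CD2 on T cells, 6.04 and 5.75 against 6.80 to 7.25. These 2 were among the lower members, and CD9 was not beyond because it was high in Namalwa alone (9.61 and 9.57 against 5.63 to 5.77).

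Several genes best known from other tissues were among the 15 higher genes with the widest gaps. DCN, a proteoglycan of connective tissue, measured 10.68 and 10.62 in SU-DHL4 and 7.92 to 7.97 in the other B-cell arrays, with 4 of 4 probe sets higher. THY1, just outside these 15, a surface protein of fibroblasts, neurons and thymocytes, measured 9.65 and 9.26 against 7.03 to 7.24, with 3 of 3 probe sets higher. Both stand on the list of 20 epithelial, fibroblast and endothelial markers. In all, 3 members were higher (15%, against 10.1% of all genes) and 3 lower (15%, against 15.7%). The fibroblast genes COL1A2 and FN1 were lower by small gaps only (7.26 and 7.13 against 7.28 to 7.54, and 6.97 and 7.05 against 7.10 to 7.14). A second COL1A2 probe set did not have SU-DHL4 lower, with 5.03 and 5.03 against 4.95 to 5.10. The summed linear level of that list, as log2, was 12.07 and 11.95 in SU-DHL4 and 11.11 to 12.42 in the other B-cell arrays. The part of other cell types in the DCN and THY1 values was not tested. SLC1A1, a glutamate transporter, measured 9.21 and 9.37 against 6.29 to 6.73, with 2 of 2 probe sets higher. NLGN4X, a synaptic adhesion protein, measured 6.85 and 6.64 against 4.16 to 4.34, and ROBO1, a guidance receptor, 7.61 and 8.23 against 5.04 to 5.36. PODXL, a sialomucin, measured 9.82 and 9.99 against 6.62 to 7.54.

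The other genes among these 15 were of mixed function. EIF2S3, a subunit of a translation initiation factor, measured 11.41 and 11.32 in SU-DHL4, 8.97 and 8.97 in SU-DHL6 and 6.95 and 5.75 in Namalwa, so all 3 lines stood apart. TSPAN13, a tetraspanin, measured 10.01 and 10.12 in SU-DHL4, 6.42 and 7.87 in SU-DHL6 and 5.57 and 5.49 in Namalwa. GLIPR1, with a secreted-protein fold, measured 10.01 and 10.58 against 6.71 to 7.85, with 3 of 3 probe sets higher. NCF4, a subunit of the phagocyte oxidase, measured 10.33 and 10.36 against 7.35 to 8.14, MEST, an imprinted gene, 10.04 and 10.12 against 7.26 to 7.84, and MAP3K7CL 7.57 and 7.79 against 4.86 to 5.03. For NCF4, MEST and MAP3K7CL the Namalwa and SU-DHL6 values overlapped.

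Among the lower genes with the widest gaps, PHGDH came next to the immunoglobulin genes; it starts the synthesis of serine. It measured 6.74 and 7.19 in SU-DHL4, 10.26 and 10.25 in Namalwa and 10.12 and 10.70 in SU-DHL6, a 10.3-fold lower mean, and SU-DHL4 was also below the PCM arrays (9.48 to 9.75). EBP, an enzyme of cholesterol synthesis, measured 8.20 and 8.16 against 10.44 to 10.83, but its 3 probe sets disagreed: 2 had SU-DHL4 lower and 1 had it higher, with 8.92 and 9.35 against 7.08 to 7.82. With the mean of its probe sets its gap was 0.46. SPTBN1, a spectrin of the membrane skeleton, measured 6.04 and 6.76 against 9.30 to 10.11, with 3 of 6 probe sets lower. Without probe sets that may read several transcripts, the SPTBN1 probe set then used gave a difference of 0.04 and no gap. ARID4B, a chromatin protein, measured 5.11 and 5.60 against 7.97 to 8.81 on 1 of 2 probe sets. RPP25, a subunit of RNase P, measured 5.53 and 5.67 against 8.06 to 8.89, and HOMER1, a scaffold of synapses, 4.40 and 4.29 against 6.49 to 6.81. SGCE, a sarcoglycan, measured 5.84 and 5.95 against 8.0 to 9.01, and PNMA1, a neuronal antigen, 4.90 and 5.09 against 7.01 to 7.52. In all 4 the SU-DHL4 arrays were lowest of the B-cell arrays by at least 1.92.

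**Figure D4:**
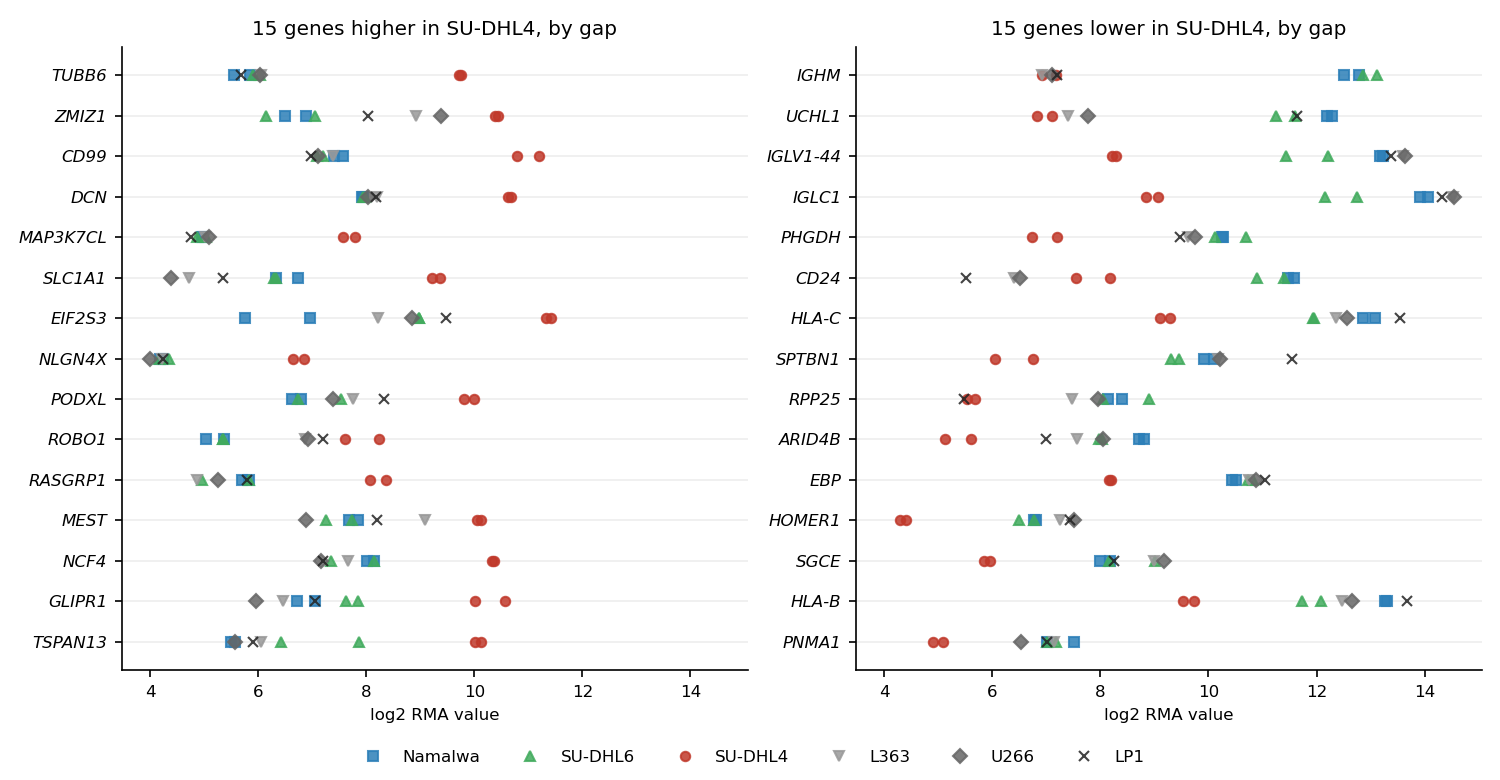
Levels (log2 RMA) in the 9 arrays of the 15 named genes with the widest gaps on the higher side and the 15 on the lower side, coloured by line. SU-DHL4 points stand alone on the right for the higher genes, and on the left for the lower genes among the B-cell arrays, with PCM points near them for IGHM.

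Genes with a wide gap were checked for agreement among their probe sets and for the difference between the 2 reference lines. Of the 64 named higher genes with a gap of at least 1, 25 had several probe sets, and in 21 of them all probe sets set SU-DHL4 higher. Of the 43 lower genes 20 had several, and in 9 of them all agreed. Namalwa and SU-DHL6 differed by limma at 2143 of 22215 probe sets (9.65%) and at 1311 of 11963 genes (11%), and 1158 probe sets (5.21%) were higher and 985 (4.43%) lower in Namalwa. Among the genes with a wide gap they differed at 8 of 64 higher and 19 of 43 lower genes. The rule used the arrays of these lines and needed both lines on the same side of SU-DHL4. These counts and the adjusted p below therefore describe chosen genes and are no independent test. Of the 30 leading genes 7 were called. In limma's test with Benjamini-Hochberg adjustment, Namalwa was lower than SU-DHL6 for EIF2S3 by 2.62 (adjusted p = 0.0133). It was higher for HLA-B by 1.38 (adjusted p = 0.00649), for HLA-C by 1.04 (0.00719), for IGLC1 by 1.54 (0.0119), for IGLV1-44 by 1.38 (0.0266), for UCHL1 by 0.82 (0.0338) and for ARID4B by 0.77 (0.0493).

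These calls rest on single arrays. Without Namalwa array 1, and also without Namalwa array 2, all but EIF2S3 lost their calls, and the number of probe sets called was 258 and 435. Without either SU-DHL4 array, which serve only to estimate the spread, EIF2S3, IGLV1-44 and UCHL1 lost theirs, and 1079 were called. Across alternatives the adjusted p lay between 0.00342 and 0.0754 for HLA-B, 0.00493 and 0.0602 for HLA-C, 0.00642 and 0.115 for IGLC1, and 0.00472 and 0.183 for IGLV1-44. It lay between 0.0131 and 0.187 for UCHL1, 0.0327 and 0.267 for ARID4B, and 0.00642 and 0.0563 for EIF2S3. For IGHM, CD24, IRF4 and CD99 the 2 reference lines differed by -0.34, 0.38, -0.49 and 0.34 without a call (adjusted p = 0.282, 0.49, 0.141 and 0.281 by limma).

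The PCM arrays were not used by the rule and show where the same genes lay in plasma cell lines; they are set against the same 4 reference arrays, so the values are given side by side. By limma on line means 149 of 22215 probe sets (0.671%) differed between 3 PCM lines and the 2 reference lines, or 89 of 11963 genes (0.744%). Of the probe sets 47 (0.212%) were higher and 102 (0.459%) lower. IGHM was lower in the PCM lines by 5.74 (SE 0.16, adjusted p = 0.00264), with 6.91, 7.10 and 7.20 in L363, U266 and LP1, as low as in SU-DHL4. CD24 was lower by 5.19 (SE 0.35, adjusted p = 0.0229), with 6.41, 6.51 and 5.52, below SU-DHL4. IRF4 was higher by 3.48 (SE 0.37, adjusted p = 0.0494), the direction opposite to that of SU-DHL4, and ROBO1 by 1.72 (SE 0.14, adjusted p = 0.0317), with 6.86 to 7.19 between the reference lines and SU-DHL4. Each of the 3 PCM values lay beyond the 4 reference arrays for these 4 genes. The rule had chosen these genes with the same reference arrays, so their adjusted p are not independent of that choice. Across alternatives the adjusted p ranged from 0.000939 to 0.0575 for IGHM, from 0.00532 to 0.157 for CD24, from 0.0197 to 0.229 for IRF4 and from 0.0143 to 0.157 for ROBO1. With L363 or U266 left out, no probe set was called by limma, against 2223 and 2633 at an unadjusted p under 0.05.

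UCHL1 was uneven in PCM lines, with 7.40 and 7.78 in L363 and U266 and 11.63 in LP1, and was not called (difference -2.90, SE 1.42, adjusted p = 0.458). CD99 was near the reference lines in all 3, at 6.98 to 7.39, so SU-DHL4 was the one line of 6 with a high value. IGLC1 was high in all 3, at 14.32 to 14.54, and HLA-C at 12.36 to 13.55. Over the 64 higher genes the PCM mean was below the SU-DHL4 mean in 62, and over the 43 lower genes above it in 38. These shares follow in part from the choice of genes by their SU-DHL4 values. The 5 lower genes with a PCM mean below that of SU-DHL4 were CD24, CCND3, MLLT11, DNAJC12 and PEG10. CCND3 measured 8.76 to 9.62 in PCM lines and MLLT11, a gene first named in a leukaemia fusion, 6.30 to 6.51.

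Position on the chromosomes was a feature the rule did not use. On chromosome 6, 24.5% of 673 measured genes were lower in SU-DHL4 and 5.35% higher, against 15.7% and 10.1% over all chromosomes. The 43 lower genes with a gap of at least 1 had 10 members on chromosome 6: CD24, HLA-C, HLA-B, IRF4, HLA-DRB4, CCND3, RRAGD, DYNLT1, HLA-DPA1 and TNFAIP3. On chromosome 21, 20.4% were lower, on chromosome 1 20.3% and on chromosome X 19.9%. The higher share was 24.1% on chromosome 18, 21.2% on chromosome 12, 17.8% on chromosome 13 and 17.3% on chromosome 3. SU-DHL6, set apart in the same way, had 31.2% higher and 4.90% lower on chromosome 6, and the 2 counts share their arrays. Copy number was not measured.

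**Figure D5:**
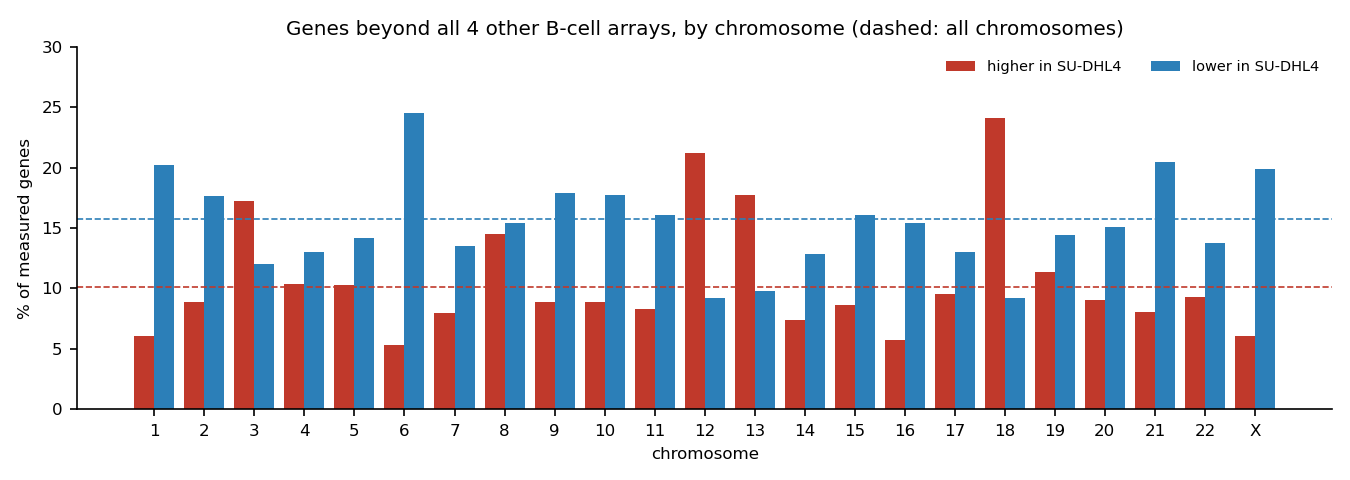
Share of measured genes on each chromosome with both SU-DHL4 arrays above (red) or below (blue) all 4 other B-cell arrays, in percent; dashed lines are the shares over all chromosomes (10.1% and 15.7%). Lower genes stand out on chromosome 6 (24.5%), higher genes on chromosomes 18 (24.1%) and 12 (21.2%).

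Runs of neighbouring genes were described by the median difference over 25 consecutive measured genes. Over 11378 such windows the median was -0.05, and the outermost percentiles were -0.24 and 0.22. The lowest window ran from POLH to MMUT on chromosome 6, with a median of -0.39 and 11 of 25 genes lower. It held NFKBIE, and its widest gaps after NFKBIE were at ENPP4 (6.32 and 6.57 against 7.09 to 8.28) and SUPT3H (6.32 and 6.86 against 7.35 to 8.04). The highest window ran from CDKN3 to DAAM1 on chromosome 14, with a median of 0.41 but only 5 of 25 genes higher, among them GCH1, the first enzyme of biopterin synthesis (9.10 and 9.30 against 8.16 to 8.58). The next highest, from HES1 to RPL35A on chromosome 3, had a median of 0.38 with 12 of 25 genes higher and 3 lower. It held ACAP2 (8.95 and 9.06 against 7.78 to 8.02) and PAK2 (10.30 and 10.68 against 8.83 to 9.70). After it in height came CCDC25 to TTI2 on chromosome 8, with a median of 0.34, 12 of 25 genes higher and 1 lower. The next lowest window after POLH to MMUT ran from SLC50A1 to SEMA4A on chromosome 1, with a median of -0.37 and 14 of 25 genes lower. A window on chromosome 6 from HCG18 to MICB was singled out after its values were seen because it holds HLA-B and HLA-C. It had a median of -0.34 with 8 of 25 genes lower and 1 higher. The other lines had windows at some of these places, from arrays that are shared. SU-DHL6, set apart, had a median of 0.50 from CNPY3 to CAPN11 on chromosome 6, and Namalwa had -0.64 from PSMC6 to TIMM9 on chromosome 14. On chromosome 8 SU-DHL6 had -0.41 from SCARA3 to MAK16, with 13 of 25 genes lower, a run that overlaps CCDC25 to TTI2. With windows of 15 genes the extremes lay elsewhere, at -0.62 on chromosome 1 and 0.66 on chromosome 3.

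For each marker the 3 genes most like it over the 6 B-cell arrays were listed by Pearson's r; every such gene separates SU-DHL4 from the rest, and the 6 arrays are 3 lines, so the values describe a shared step and no more. For IGHM they were CCL16 (r = 0.999), EBP (0.998) and CASQ2 (0.996), and the steps of CCL16 (-0.28) and CASQ2 (-0.25) were small. For CD24 they were PGAP4, DYNLT1 and CHML, of which DYNLT1, a dynein light chain, had a step of -1.72. For IRF4 they were SLC20A1, TPST1 and VPS16, and for UCHL1 POGLUT1, ATG3 and CHMP5, with differences from -0.85 to -0.30 and from -0.73 to -0.49. For CD99 they were SLC1A1 (2.87), MFSD6 (1.61) and GALNT14 (1.66), all higher in SU-DHL4 by a wide gap.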

How the data were processed

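Per the submitters' processing notes the authors normalized the Affymetrix arrays by RMA, and the deposited table holds log2 values, 22283 probe sets for each of 9 arrays. Neither the version of RMA nor whether the 9 arrays went through it as 1 set is stated in the labels or files. The 68 control probe sets were left out. Of 22215 probe sets 19065 had 1 gene symbol, 1043 several and 2107 none. Each of 11963 genes was read at the single-symbol probe set with the highest mean over the 6 B-cell arrays, and 11930 genes had a chromosome. The members and gene lists were chosen with earlier results of these data known. Named were the 5 markers, the 15 genes with the widest gap in each direction, up to 4 members by gap in each direction of the lists described, every measured immunoglobulin gene, the genes at the edges of the rule, the extreme windows and the 3 genes most like each marker. Counts cover all genes, but 24 genes were left out of naming. Other genes, such as MS4A1, CD79A, PAX5, VPREB1, CCL4, CD9, CR2, B2M, MYC, IFNGR1, MX1, RELA and PRDM1, were named after their values were seen.

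Namalwa was compared with SU-DHL6 by limma 3.58.1 (R 4.3.3; lmFit, eBayes, two-sided) on 6 arrays with line as factor, and the PCM lines with both reference lines on line means, each with 3 residual degrees of freedom, which limits precision. Calls are at a Benjamini-Hochberg adjusted p under 0.05 over all probe sets. On simulated data over 22215 probe sets the first comparison recovered 59.7%, 88.1% and 100% of changes of 1, 2 and 4 (log2) with 8 false calls, and the second 35.8%, 62.7% and 90.9% with 6. The simulated lines were drawn independently of each other, whereas the measured L363 and U266 arrays were as alike as duplicates. The figures of the second comparison therefore do not cover that likeness. Tables used Python 3.11.15, pandas 2.3.3, numpy 2.4.6 and matplotlib 3.10.9. Promoters came from RefSeq (GRCh38.p14). Alternatives were other scalings, probe set choices, gaps, windows and thresholds, a replicate block, and each array or line left out.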

Additional observations from a re-analysis of the deposited data

How the results depend on the processing

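Gaps were recomputed only for the markers and the 15 genes with the widest gap in each direction, not for the further named genes. This gave 387 gaps. All but 3 stayed above 0: without _x_at and _s_at probe sets SPTBN1 was at -0.20 (difference 0.04), IGLC1 at -0.16 and ARID4B at -0.22. In 318 the gap moved by less than 1 SD of the duplicates, and it shrank by over 1.5 times in 8 genes, each time under those probe sets or the mean of all probe sets. Without _x_at and _s_at probe sets the gap was 0.04 for IGLV1-44, 0.64 for EBP and 1.43 for DCN. With the mean of all probe sets it was 0.46 for EBP, 0.55 for IRF4, 0.63 for SPTBN1, 0.65 for IGLV1-44, 1.02 for IGLC1, 1.11 for ARID4B and 1.91 for IGHM. Without those probe sets 1241 genes were lower, 22 of them by at least 1, and 1162 were lower among probe sets above the median level; fewer genes were tested in both. Centring on the 75th percentile gave 971 higher and 2664 lower genes, so 26.7% of genes beyond were higher, against 39.2%, and the median of all genes was -0.10 against -0.05. A gap of at least 2 left 20 higher and 13 lower genes.

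Against the SU-DHL6 arrays alone, chosen after seeing the data, 2248 genes were higher and 4014 lower, 200 and 162 by at least 1. Against Namalwa alone the counts were 2735 and 3397, and 186 and 194; fewer arrays bound both. Leaving out 1 array in turn gave 1314 to 1981 higher and 2178 to 3876 lower genes, and 71 to 106 and 45 to 79 at a gap of at least 1. Without SU-DHL4 array 1 they were 1958 and 3876, without array 2 1981 and 2887, and without SU-DHL6 array 1 79 lower genes had a gap of at least 1. Marker gaps ranged from 1.91 to 5.68 for IGHM, 2.72 to 3.36 for CD24, 0.55 to 2.04 for IRF4, 4.14 to 5.09 for UCHL1 and 3.22 to 3.62 for CD99. Windows of 15 genes gave -0.62 and 0.66, and windows of 40 a highest median of 0.29 on chromosome 19.

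Namalwa against SU-DHL6 gave 2143 calls, 1059 without the _x_at and _s_at probe sets, 670 at an adjusted p under 0.01, 1079 from the 4 arrays alone and 258 to 2581 with 1 array left out. The PCM comparison gave 149, 0 with L363 and U266 averaged (limma, 2566 at an unadjusted p under 0.05), 258 after 75th percentile centring, 53 without the _x_at and _s_at probe sets, 228 above the median level and 13 at an adjusted p under 0.01. With 1 line left out it gave 0 to 324: 0 without L363, 0 without U266, 41 without SU-DHL6 and 324 without LP1. The cause was not tested. For the markers and the 15 genes with the widest gap in each direction, 31 calls between the reference lines were lost under some alternative. Between these lines 10 were gained. In the PCM comparison 24 were lost and 3 gained.

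As labelled, the replicate numbers did not pair the samples the same way in all lines. The differences between duplicates correlated at -0.44 (Namalwa and SU-DHL4), -0.15 (Namalwa and SU-DHL6) and 0.20 (SU-DHL4 and SU-DHL6). With the replicate number as a block 1537 probe sets were called between Namalwa and SU-DHL6, against 2143 without a block. With the Namalwa numbers swapped, an alternative added after seeing the data, 2590 were called. Whether arrays of different lines share an effect under swapped numbers was not tested. With 2 arrays to a line and no detection calls, small gaps and low values have the least support.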
